A study of Mus musculus with 11 samples.

Results

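The genes examined here were Trp53, the gene of the tumour suppressor p53, and 4 genes whose proteins act directly on p53: Mdm2, Mdm4, Usp7 and Ppm1d. They were chosen by symbol from the 27179 genes of the count tables, and all 5 members were found and passed the expression filter with 14542 tested genes. Levels were compared in the brains, cut just behind the otic vesicle, of C57BL/6 mice at embryonic day 9.5, in 11 polyadenylated RNA libraries. The labels do not say whether a library holds 1 brain or several, nor that libraries come from separate litters, so p-values measure the spread between these libraries, which may be partly technical. The groups were 4 affected females (p53-/- Bim+/-), 4 control males (p53-/- Bim+/-) and 3 control females (p53+/+ Bim+/-). By the labels, all groups lacked 1 copy of Bim (Bcl2l11, a pro-apoptotic BCL-2 family gene), and no group was wild type at both loci. The labels do not say how the females were affected or which part of Trp53 was removed. Males and females with the same p53 genotype and the same condition were never both present, so sex, p53 genotype and being affected cannot be fully told apart.

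p53 is a transcription factor that is made continuously and destroyed continuously. Mdm2 is the ubiquitin ligase that marks it for destruction, Mdm4 is a relative of Mdm2 that covers the activation domain of p53 and pairs with Mdm2, and Usp7 is a deubiquitinase that takes ubiquitin off p53, Mdm2 and Mdm4. Ppm1d (Wip1) is a phosphatase that removes activating phosphates from p53 and its kinases. Mdm2 and Ppm1d are themselves activated by p53, which closes a negative feedback loop, and mouse embryos without Mdm2 or Mdm4 die unless p53 is removed too.

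Levels are given as TMM-normalised CPM (the share of a library's counts, scaled by library size). Log2 fold changes, standard errors (SE) and 95% intervals come from a quasi-likelihood fit in edgeR, p-values were adjusted by the Benjamini-Hochberg method over 14542 genes, and a gene is said to have risen or fallen where the adjusted p was under 0.05. Library totals ran from 8211942 to 11218682 counts, and the 5 genes had between 244 (Ppm1d) and 5341 (Usp7) counts in any library. The 4 Y-linked genes Kdm5d, Uty, Ddx3y and Eif2s3y stood at 49.7 to 119 CPM in every control male and at no more than 0.53 CPM in every female, as the labels give. Xist, the RNA that coats the inactive X, averaged 1722 CPM among affected females, 5044 CPM among control females and 10.2 CPM among males. Bcl2l11 averaged 43.7, 40.2 and 76.7 CPM among affected females, control males and control females, although the labels give Bim+/- for all of them. Of 10 neural progenitor markers all 10 had counts in every library, and their summed level was 825 to 977 CPM among the affected females, 826 to 1060 among the control males and 779 to 1063 among the control females. In whole tissue, fewer cells of a type and less RNA per cell cannot be told apart. Control female 1 and control male 4 stood apart from their groups in earlier results of these data, so the main counts below are also given without them.

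The start regions of the members were searched for short motifs, and differed in which of them they held. RefSeq windows in build GRCm38.p6, from 250 bases before to 50 bases after a start site, were found for 5 of 5 members, with 2 alternative starts for Mdm4. They were searched on both strands for the p53 binding decamer (1 of the 2 copies that make a full p53 element), the E-box CACGTG, the GC box GGGCGG and the CCAAT box CCAAT. Those of Trp53, Mdm2, Ppm1d and Mdm4 are shown because the first 3 held a decamer and Mdm4 differed most between groups. Capitals mark matches, and adjoining matches run together.
Trp53 at chr11:69580109-69580408, plus strand: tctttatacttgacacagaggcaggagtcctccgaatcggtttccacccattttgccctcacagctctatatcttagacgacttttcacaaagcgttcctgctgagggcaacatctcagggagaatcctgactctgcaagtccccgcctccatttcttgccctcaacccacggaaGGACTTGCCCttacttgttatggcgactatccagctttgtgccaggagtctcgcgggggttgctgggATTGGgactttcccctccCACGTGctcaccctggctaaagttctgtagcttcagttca
Mdm2 at chr10:117710709-117711008, minus strand: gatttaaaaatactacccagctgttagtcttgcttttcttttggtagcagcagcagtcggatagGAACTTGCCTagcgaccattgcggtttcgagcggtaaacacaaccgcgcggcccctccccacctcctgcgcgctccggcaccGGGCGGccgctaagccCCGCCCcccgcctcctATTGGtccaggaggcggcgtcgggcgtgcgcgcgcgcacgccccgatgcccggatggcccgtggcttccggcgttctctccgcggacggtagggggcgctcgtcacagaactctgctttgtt
Ppm1d at chr11:85311004-85311303, plus strand: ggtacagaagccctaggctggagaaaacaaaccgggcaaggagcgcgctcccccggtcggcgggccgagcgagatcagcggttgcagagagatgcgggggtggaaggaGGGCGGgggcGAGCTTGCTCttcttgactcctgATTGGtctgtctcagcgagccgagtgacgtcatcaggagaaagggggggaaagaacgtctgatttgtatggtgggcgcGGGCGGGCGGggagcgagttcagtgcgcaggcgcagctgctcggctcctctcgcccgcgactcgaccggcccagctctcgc
Mdm4 at chr1:133030538-133030837, minus strand: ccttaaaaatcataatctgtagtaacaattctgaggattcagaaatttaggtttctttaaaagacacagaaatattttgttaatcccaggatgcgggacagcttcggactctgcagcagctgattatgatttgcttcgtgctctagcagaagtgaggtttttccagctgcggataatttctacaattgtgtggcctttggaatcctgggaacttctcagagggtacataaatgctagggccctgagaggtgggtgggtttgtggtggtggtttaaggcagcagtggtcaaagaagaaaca
Mdm4 at chr1:133025367-133025666, minus strand: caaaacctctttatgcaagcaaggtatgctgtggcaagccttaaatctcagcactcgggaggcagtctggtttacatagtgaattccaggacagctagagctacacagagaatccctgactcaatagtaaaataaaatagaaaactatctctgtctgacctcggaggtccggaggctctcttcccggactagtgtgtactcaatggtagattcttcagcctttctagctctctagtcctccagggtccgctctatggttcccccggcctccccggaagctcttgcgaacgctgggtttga
The decamer occurred once each in the Trp53, Mdm2 and Ppm1d windows, and in 8.36% of all 32851 windows. Neither Mdm4 window held any of the 4 motifs, and the Usp7 window held no decamer but 8 GC boxes, partly overlapping, with a GC content of 86.0% against 43.0% and 49.7% in the Mdm4 windows. A match is a description of letters and not a site of binding. The further start region of Mdm2 within an intron lay outside its window and was not searched, so the Mdm2 decamer is not shown to be its p53 element. The E-box CACGTG was found in the Trp53 window alone among the 5 genes, 11 bases into the transcript, and in 7.15% of all windows. The Trp53 window also runs over the start of Wrap53, a gene on the opposite strand, with 97 bases between it and Trp53.

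Per kilobase of gene length, Usp7 and Trp53 were the most abundant of the 5 RNAs and Ppm1d the least. The mean level was 79.9 ± 9.56 CPM per kilobase for Usp7, 64.3 ± 6.45 for Trp53, 40.2 ± 12.1 for Mdm4, 26.9 ± 3.44 for Mdm2 and 13.9 ± 1.72 for Ppm1d (SD over all 11 libraries). Within single libraries the order was steady. Usp7 exceeded Trp53 in 10 of 11 libraries, and Trp53 exceeded Mdm4, Mdm4 exceeded Mdm2 and Mdm2 exceeded Ppm1d in 11 of 11. Across libraries the ranges of neighbouring genes overlapped, apart from Mdm2 and Ppm1d. The libraries differed most in Mdm4, which spanned 2.18-fold from the lowest to the highest library, against 1.33-fold for Trp53, 1.43-fold for Usp7, 1.47-fold for Mdm2 and 1.59-fold for Ppm1d.

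**Figure D1:**
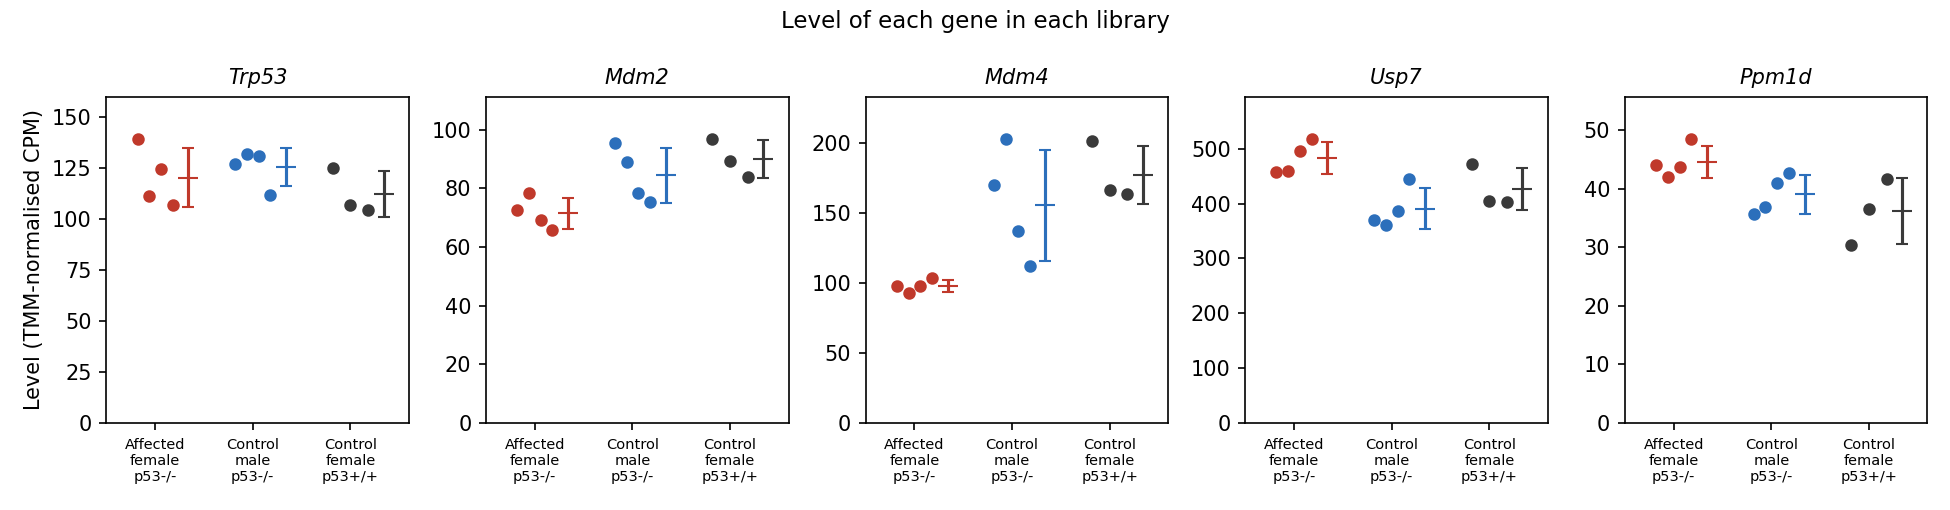
Level of Trp53, Mdm2, Mdm4, Usp7 and Ppm1d in TMM-normalised CPM (vertical axis, from 0) in each of 11 libraries by group (horizontal axis), with the group mean and SD beside the points. The 4 affected females sit between 92.8 and 103 CPM for Mdm4, below all other libraries, while the Trp53 ranges of the 3 groups overlap.

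Trp53 (chromosome 11, 69580348 to 69591873 in GRCm38) was measured first because it is the targeted gene. It stood at 139, 111, 125 and 107 CPM in affected females 1 to 4, whereas males 1 to 4 had 127, 132, 131 and 112 CPM, and the p53+/+ libraries 1 to 3 had 125, 107 and 105 CPM. The groups overlapped throughout, and the library with the most Trp53 RNA was p53-/-. Gene-level counts cannot tell whether part of the transcript is missing, so this level is no check of the genotype labels. The log2 fold change was 0.10 in affected females (95% interval -0.12 to 0.32, adjusted p = 0.475, edgeR) and 0.16 in control males (-0.06 to 0.38, adjusted p = 0.842, edgeR), both against the same control females. Affected females stood at -0.06 relative to control males (-0.26 to 0.15, adjusted p = 0.69, edgeR). A processed copy, Trp53-ps, lies on chromosome 17 at 54419597 to 54421236 and has no row of its own, and the treatment of reads that match both is not stated. The divergent neighbour Wrap53, which encodes a protein of telomerase assembly, averaged 25.3 ± 1.70 CPM (SD, n = 4) among affected females, 26.8 ± 2.41 (n = 4) among control males and 26.7 ± 1.22 (n = 3) among control females, and was not called between any of these groups (log2 fold change -0.07, SE 0.10, in affected against control females, adjusted p = 0.622, edgeR). Ccng1, a cyclin gene that p53 activates, fell from 87.1 to 23.2 CPM in affected females and to 30.4 CPM in control males.

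Mdm4 (chromosome 1, 132986105 to 133030587) fell in affected females. The affected females had 97.8, 92.8, 97.5 and 103 CPM, the control males 169, 202, 137 and 112 CPM, and the control females 201, 166 and 163 CPM. Every affected female lay below every other library, and the affected females were also the tightest group, with an SD of 4.25 CPM (n = 4) against 39.3 for the males (n = 4) and 20.9 for the control females (n = 3). Against control females Mdm4 fell 1.81-fold (log2 fold change -0.85, SE 0.15, 95% interval -1.17 to -0.53, adjusted p = 0.00305, edgeR). Against control males, which carry the same p53-/- Bim+/- genotype, it fell 1.59-fold (-0.67, SE 0.14, -0.96 to -0.37, adjusted p = 0.0107, edgeR). Between control males and control females, groups that differ by sex as well as by p53, the log2 fold change was -0.19 (SE 0.15, -0.51 to 0.13, adjusted p = 0.862, edgeR). When both p53-/- groups were averaged against control females it was -0.52 (SE 0.13, adjusted p = 0.0456, edgeR), with overlapping ranges, and this call was lost on leaving out any 1 of 8 libraries: affected females 1 to 4, control male 3 or control females 1 to 3 (adjusted p = 0.0594 to 0.109, edgeR). A processed copy of Mdm4, Mdm4-ps, lies on chromosome X at 128261261 to 128264809 with no row in the tables.

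Marker lists of other cell types also differed between affected and control females, where 28% of all tested genes were called. All 11 tested early neuron markers fell, and the summed level of the 12 listed was 96.3 to 132 CPM among affected females, 190 to 331 among control males and 127 to 320 among control females. Control females 1 to 3 had 127, 278 and 320 CPM of neuron markers beside 201, 166 and 163 CPM of Mdm4. Control female 1 thus lay inside the affected range of neuron markers. Among control males 1 to 4, 204, 331, 192 and 190 CPM of neuron markers stood beside 169, 202, 137 and 112 CPM of Mdm4. Surface ectoderm markers rose for 9 of 10, with a summed 323 to 371 CPM among affected females, 188 to 260 among control males and 167 to 296 among control females. Neural crest markers rose for 6 of 8 and fell for 1, with 361 to 428 CPM, 310 to 346 CPM and 285 to 298 CPM in the same order. Of the other lists, 2 of 10 neural progenitor markers rose and 2 fell, 2 of 10 head mesenchyme markers rose, 1 of 8 endothelial markers fell and 0 of 8 primitive erythroid markers were called. Without control female 1 and control male 4, when 38.8% of all genes were called, 3 endothelial and 5 erythroid markers fell and 3 head mesenchyme markers rose. In affected females against control males, where 20.2% of all genes were called, 8 of 11 neuron markers fell, 8 of 10 surface ectoderm markers rose, and 2 of 8 neural crest markers rose and 1 fell. In the p53-/- average 3.16% of all genes were called. There 1 of 11 neuron and 1 of 10 neural progenitor markers fell, and 1 of 10 surface ectoderm and 2 of 8 neural crest markers rose. Without control female 1 and control male 4, 9.01% of all genes were called in that average. Then 11 neuron, 5 erythroid, 2 neural progenitor and 1 neural crest markers fell, and 9 surface ectoderm and 5 neural crest markers rose. No marker of these lists was at 0 in all libraries, and the part of cell makeup in the Mdm4 difference was not tested.

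**Figure D2:**
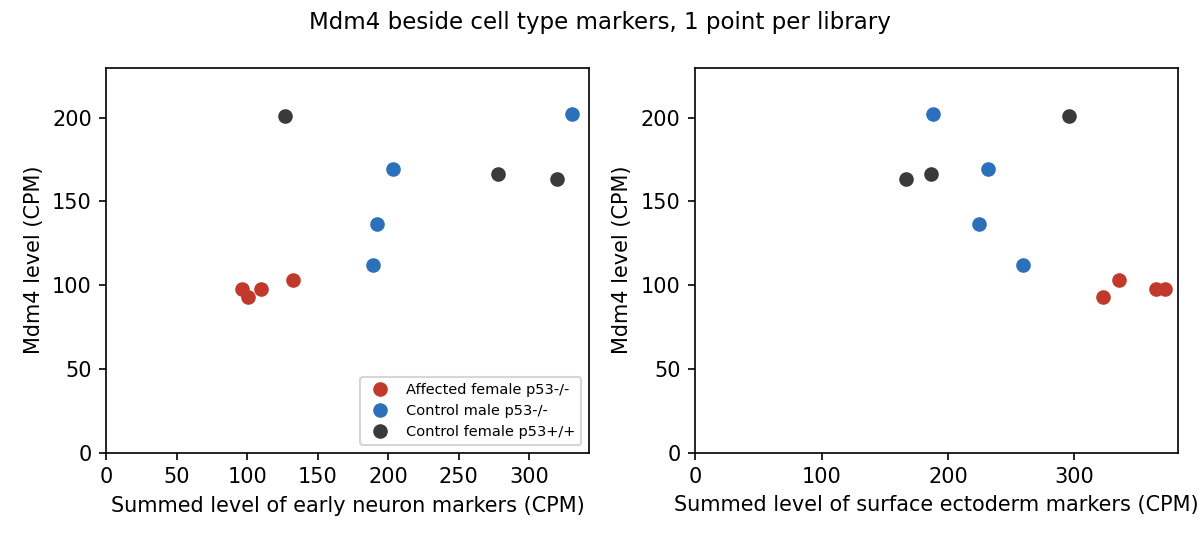
Mdm4 level (vertical axis, CPM) against, on the horizontal axis, the summed level of early neuron markers (left) and surface ectoderm markers (right, CPM), 1 point per library, coloured by group. Affected females lie at 92.8 to 103 CPM of Mdm4 with few neuron and many surface ectoderm transcripts. Control female 1 has 127 CPM of neuron markers and 201 CPM of Mdm4, and control male 4 has 190 and 112 CPM.

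Mdm2 (chromosome 10, 117688875 to 117710758), the ligase and p53 target, showed a smaller difference. The affected females had 72.7, 78.4, 69.2 and 65.9 CPM, the control males 95.5, 89.0, 78.3 and 75.2 CPM, and the control females 96.8, 89.2 and 83.8 CPM. All affected females lay below all control females, while control males spanned both ranges. Mdm2 fell 1.26-fold in affected against control females (log2 fold change -0.33, SE 0.10, 95% interval -0.54 to -0.12, adjusted p = 0.0239, edgeR). The call was lost without affected female 3 (adjusted p = 0.0647, edgeR), affected female 4 (0.0615), control female 1 (0.065) or control female 2 (0.0689). In control males against control females the value was -0.09 (SE 0.10, -0.30 to 0.12, adjusted p = 0.90, edgeR), and in affected females against control males -0.24 (SE 0.09, -0.44 to -0.05, adjusted p = 0.071, edgeR). The latter passed without control male 4 (-0.29, adjusted p = 0.0204, edgeR). In the same libraries the target gene Ccng1 had an interval of -2.13 to -1.68 in affected females and -1.74 to -1.30 in control males.

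Ppm1d (chromosome 11, 85311254 to 85347071), the phosphatase and also a p53 target, was called in none of the comparisons. The affected females had 44.1, 42.0, 43.6 and 48.4 CPM, the control males 35.7, 36.8, 40.9 and 42.6 CPM, and the control females 30.4, 36.6 and 41.6 CPM. Affected females lay above all control females, by a narrow gap between 42.0 and 41.6 CPM. The log2 fold change was 0.29 in affected against control females (SE 0.11, 95% interval 0.06 to 0.53, adjusted p = 0.0566, edgeR), which missed the threshold, 0.10 in control males (SE 0.11, -0.13 to 0.34, adjusted p = 0.897, edgeR), and 0.19 in affected females against control males (SE 0.10, adjusted p = 0.179, edgeR). Without control female 3 the first of these was 0.41 (adjusted p = 0.0414, edgeR), without control male 4 it was 0.29 (adjusted p = 0.044, edgeR), and control female 1, with 30.4 CPM, was the lowest library of all 11.

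Usp7 (chromosome 16, 8688722 to 8757067), the deubiquitinase, rose in affected females relative to control males. The affected females had 457, 460, 496 and 517 CPM, the control males 370.1, 362, 386 and 445 CPM, and the control females 471, 404 and 403 CPM. All affected females lay above all control males, and control female 1 lay among the affected females. Against control males the rise was 1.23-fold (log2 fold change 0.30, SE 0.09, 95% interval 0.11 to 0.50, adjusted p = 0.0351, edgeR), and it was lost without affected female 3 or 4 or control male 1, 2 or 3 (adjusted p = 0.0851 to 0.106, edgeR). Against control females the value was 0.18 (SE 0.10, -0.04 to 0.39, adjusted p = 0.19, edgeR), which without control female 1 and control male 4 became 0.26 (adjusted p = 0.0247, edgeR). Control males stood at -0.13 relative to control females (SE 0.10, -0.34 to 0.09, adjusted p = 0.863, edgeR).

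The counts of called members have to be read against the whole table. In affected against control females 2 of 5 members fell and none rose, where 28% of all tested genes were called, 15% lower and 13% higher. The groups did not overlap for 3 of 5 members (Mdm2, Mdm4 and Ppm1d), against 40.2% of all tested genes, and those 3 had an unadjusted p under 0.05, as did 42.4% of all genes. In affected females against control males 1 of 5 rose and 1 fell, where 20.2% of genes were called, 9.51% higher and 10.7% lower. The groups did not overlap for 2 of 5 (Mdm4 and Usp7), against 19.5% of genes, and 3 of 5 (Mdm2, Mdm4 and Usp7) had an unadjusted p under 0.05, as did 37.3% of genes. In control males against control females none of the 5 was called and none failed to overlap, where 0.144% of all genes were called by edgeR (0.0481% higher and 0.0963% lower), 6.13% had an unadjusted p under 0.05 and 5.54% did not overlap. None of the 5 had an unadjusted p under 0.05 in that comparison. Limma voom with sample weights called Trp53 there (0.27, adjusted p = 0.0344), but it called 1569 of 14542 genes, against 21 with edgeR. In the average of both p53-/- groups 1 of 5 was called, Mdm4, where 3.16% of genes were (0.77% higher and 2.39% lower). There 2 of 5 (Mdm2 and Mdm4) had an unadjusted p under 0.05, as did 25.5% of genes, and the ranges of all 5 overlapped, where 2.68% of genes did not overlap. Without control female 1 and control male 4, 1 of 5 rose and 2 fell in affected against control females, where 38.8% of all genes were called. In that setting 2 rose and 2 fell in affected females against control males, where 40.9% of genes were called. None was called in control males against control females (0.163% of genes), and 1 fell in the p53-/- average (9.01% of genes).

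**Figure D3:**
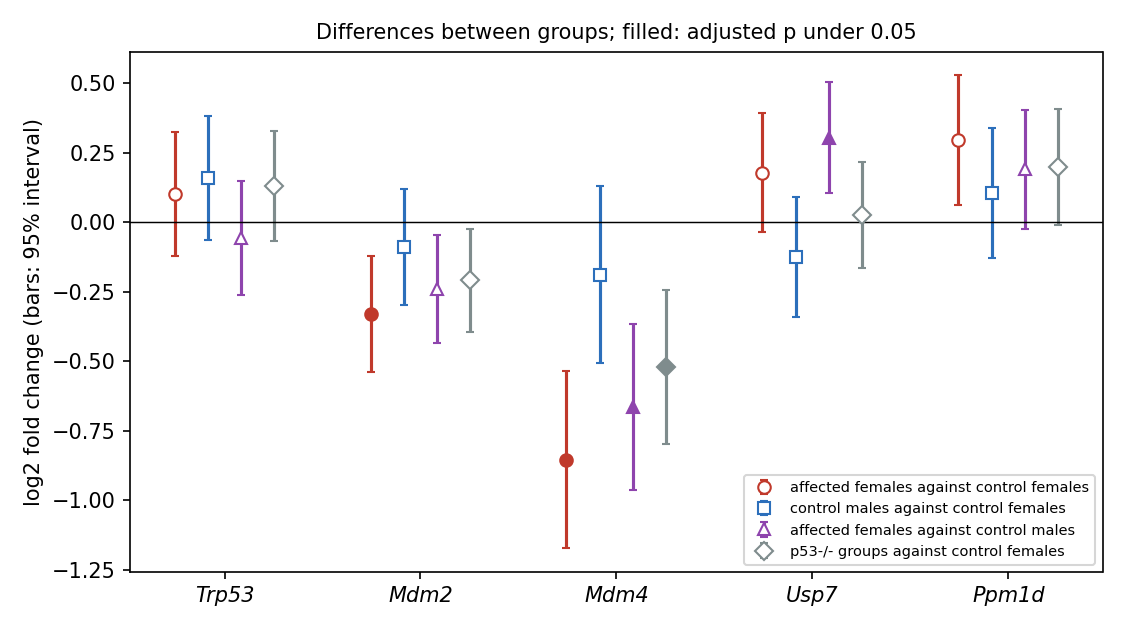
Log2 fold change (vertical axis) of each gene (horizontal axis) in 4 comparisons, with 95% intervals from edgeR and filled symbols where the adjusted p was under 0.05. The filled symbols are Mdm2 and Mdm4 in affected against control females, Mdm4 and Usp7 in affected females against control males, and Mdm4 in the average of the p53-/- groups. The comparisons share libraries and are not independent.

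Among the control males, control male 4 had the least Mdm4 (112 CPM) and Mdm2 (75.2 CPM) and the most Usp7 (445 CPM) and Ppm1d (42.6 CPM). Control male 2 lay at the other end in Mdm4 (202 CPM) and Usp7 (362 CPM). In each of these 4 genes, control male 4 was thus the male nearest to the mean of the affected females or inside their range.

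The proportions of the RNAs within a library do not depend on library scaling. The log2 ratio of Mdm2 to Mdm4 per kilobase was -0.22, -0.04, -0.29 and -0.44 in affected females, -0.62, -0.98, -0.60 and -0.37 in control males, and -0.85, -0.69 and -0.76 in control females. By the deposited gene lengths the RNAs were thus on average closest to equal in the affected females. The mean ratio there was -0.25 ± 0.17 (SD, n = 4) against -0.77 ± 0.08 (n = 3) in control females, with no overlap. This difference was 0.52 (exact two-sided permutation p = 0.0286, which no split of these libraries can undercut, adjusted p = 0.0914 over 8 ratio tests). Against control males the difference was 0.39 (exact permutation p = 0.0571, adjusted p = 0.0914). Those ranges overlapped, with control male 4 at -0.37 and affected female 4 at -0.44.

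The log2 ratio of Mdm2 to Trp53 per kilobase was -1.64, -1.20, -1.54 and -1.40 in affected females, -1.11, -1.26, -1.44 and -1.27 in control males, and -1.07, -0.96 and -1.02 in control females. All 8 p53-/- libraries lay below all 3 p53+/+ libraries, by a difference of -0.34 in the means (two-sided exact permutation test, p = 0.0182, smallest possible 0.00606, adjusted p = 0.0914). Within the p53-/- libraries, affected females and control males differed by -0.17 (exact permutation p = 0.20, adjusted p = 0.229). None of the 8 ratio tests passed after adjustment.

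**Figure D4:**
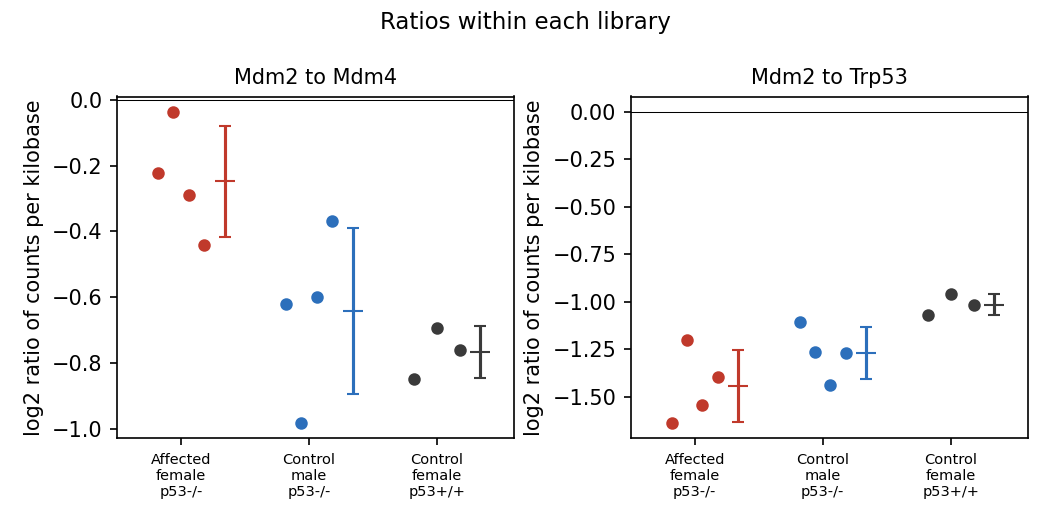
Log2 ratio of Mdm2 to Mdm4 (left) and of Mdm2 to Trp53 (right), in counts per kilobase of gene length, in each library by group, with the group mean and SD. Affected females have the highest Mdm2 to Mdm4 ratios on average (-0.25), and all p53-/- libraries lie below the p53+/+ libraries for Mdm2 to Trp53.

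The wider pathway was described with 8 lists. For p53-activated target genes, 13 of 35 tested members fell and none rose in affected against control females, where 28% of all tested genes were called. Their median log2 fold change was -0.26 beside -0.005 over all tested genes. Of these targets 3 rose and 13 fell without control female 1 and control male 4, when 38.8% of all tested genes were called. In control males 3 of 35 fell and none rose (median -0.30): Eda2r, a receptor gene, at -3.35 (SE 0.32), Ccng1 at -1.52 (SE 0.10) and Zfp365, a gene of genome stability, at -0.97 (SE 0.16). Without control female 1 and control male 4, 2 of 35 fell, where 0.163% of all tested genes were called. Slc19a2, a thiamine transporter gene, fell in affected females from 23.8 to 11.2 CPM (-1.09, SE 0.15). In affected females against control males 2 target genes rose and 6 fell, where 20.2% of all tested genes were called. Without control female 1 and control male 4 these counts were 8 and 10, when 40.9% of all tested genes were called. In the average of the p53-/- groups 10 of 35 fell and none rose (median -0.36), where 3.16% of all tested genes were called. With the same libraries omitted, 11 of 35 fell and none rose there, where 9.01% were called. That average shares its libraries with the other comparisons.

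The next counts stand beside 28% of all tested genes called in affected against control females, or 38.8% without control female 1 and control male 4. Genes for other ubiquitin ligases and their cofactors rose for 6 of 18 and fell for none (10 and 0 without these libraries), with a median of 0.16. Daxx, a scaffold that bridges Mdm2 and Usp7, rose by 0.33 (SE 0.09, adjusted p = 0.0165, edgeR), as did Topors, a ligase for ubiquitin and SUMO (0.33, SE 0.10), and the cullin gene Cul4a (0.26, SE 0.09). Genes for other deubiquitinases rose for 4 of 13 and fell for none (6 and 0 without these libraries), with a median of 0.25. Usp9x, an X-linked deubiquitinase gene, rose by 0.60 (SE 0.12) from 312 to 474 CPM, and Usp15, a deubiquitinase of Mdm2, by 0.40 (SE 0.13). Usp29, at 5.85 against 4.09 CPM, had 0.53 (SE 0.21, adjusted p = 0.0704, edgeR). In control males against control females none of these 18 and 13 genes was called, where 0.144% of all tested genes were.

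Of 8 tested genes for proteins that inhibit Mdm2, 3 fell and 1 rose in affected against control females, where 28% of all tested genes were called. Without control female 1 and control male 4, 3 fell and 2 rose, where 38.8% were called. The ribosomal protein genes Rps7 and Rpl5 fell by 0.49 (SE 0.12) and 0.44 (SE 0.12), and Rpl11 stood at 4.25 against 9.25 CPM (-1.10, SE 0.29, adjusted p = 0.0134, edgeR). Ribosomal protein genes have many near-identical processed copies, so their counts are uncertain where reads were shared. Cdkn2a, which encodes the Mdm2 inhibitor Arf, was at or under 0.103 CPM in every library and was not tested. It is named here because of that level. Of p53 family and binding proteins 1 of 9 rose and none fell (1 and 1 without these libraries): Trp53bp2, which encodes the p53 cofactor ASPP2, rose by 0.43 (SE 0.09). Trp53i11 stood at -0.32 (SE 0.12, adjusted p = 0.0569, edgeR) and Trp53rka at 0.20 (SE 0.17).

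Genes for kinases of p53, Mdm2 or Mdm4 rose for 3 of 15 and fell for 1 (8 and 1 without control female 1 and control male 4). Mapk14, which encodes p38, rose by 0.32 (SE 0.10) and the casein kinase gene Csnk1d by 0.35 (SE 0.10), while the neuronal kinase gene Cdk5 fell by 0.66 (SE 0.15). Of 14 genes for enzymes that acetylate or methylate p53 or reverse it, 3 rose and 1 fell (5 and 1 without these libraries), with Setd7 and Prmt5, both methyltransferase genes, at 0.48 (SE 0.09) and 0.50 (SE 0.12), and the acetyltransferase gene Kat2b at -0.97 (SE 0.26). Among 14 tested relatives of Ppm1d, 5 rose and 3 fell (7 and 4 without these libraries). Ppm1f rose by 0.41 (SE 0.08) and Pptc7 by 0.41 (SE 0.12), while Ppm1k, a mitochondrial phosphatase gene, fell by 1.25 (SE 0.27) from 7.65 to 3.20 CPM. No gene of the 7 lists other than the targets was called in control males against control females, where 0.144% of all tested genes were. The shares called in affected females stand beside 28% of all tested genes, or 38.8% without control female 1 and control male 4.

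**Figure D5:**
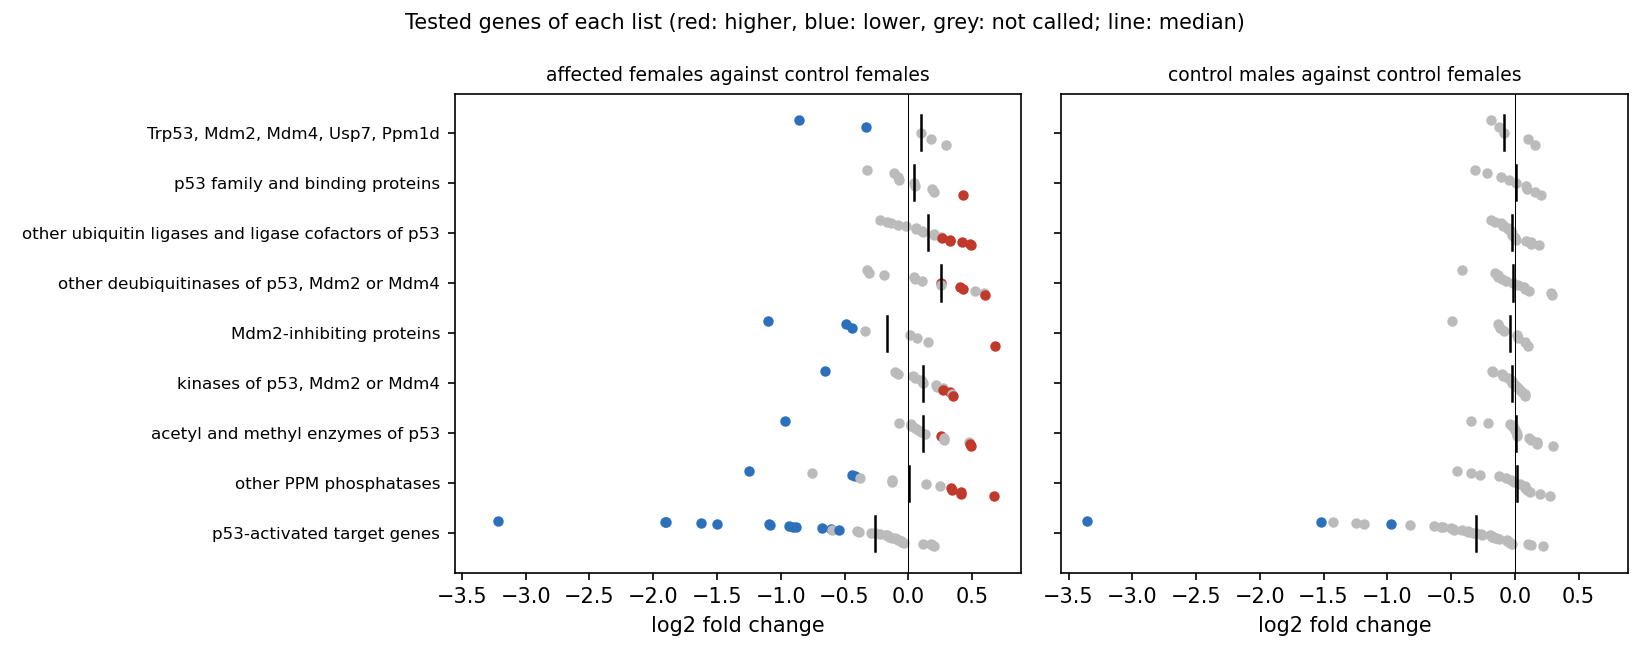
Log2 fold change (horizontal axis) of each tested gene of the 5 genes studied and of 8 pathway lists (rows) in affected against control females (left) and control males against control females (right), with red for higher, blue for lower and grey for not called by edgeR, and a line at each median. In control males only 3 p53 targets are coloured, where 0.144% of all genes were called.

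The genes nearest in pattern to each member were found by the root mean square difference of centred log2 CPM over the 11 libraries, among genes that vary at least as much. For Mdm4, whose own SD was 0.44, these were Slc35b3 (0.07), B930095G15Rik (0.08) and Sorcs1 (0.09). For Mdm2 (SD 0.19) they were Bet1 (0.06), Agbl5 (0.07) and Atrip (0.07), for Usp7 (SD 0.17) Pdxdc1 (0.03), Kif5b (0.05) and Qk (0.05), and for Ppm1d (SD 0.18) Fam167a (0.06), Lrrc8b (0.06) and Zmpste24 (0.07). Trp53 had no close match: with an SD of 0.14, its nearest genes Acvr2b, Tmem38b and Lmf1 differed by 0.09 to 0.10. Such matches were picked from 2267 (Mdm4) to 11586 (Trp53) candidate genes over 11 libraries and describe these libraries alone.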

How the data were processed

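Polyadenylated RNA was made into TruSeq libraries and sequenced on an Illumina HiSeq, per the labels' protocols. The authors deposited raw whole-number counts per Entrez gene, with gene lengths, and per the submitters' processing notes used featureCounts on mm10. The sources used here name no aligner, version, annotation release or strand setting. The series-wide table held the same counts and was not used.

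Identifiers were matched to RefSeq symbols (GRCm38.p6) and GENCODE vM21, and 25293 of 27179 had one. Counts were fitted with edgeR 4.0.16 (R 4.3.3): filterByExpr, TMM, 1 quasi-likelihood fit of all 11 libraries by group, threshold 0.05 on the adjusted p. Totals of 8211942 to 11218682 counts limit precision, with a biological coefficient of variation of 11.9%. SE is the log2 fold change over the square root of F. Replicates are the libraries that the labels number within a group. Library pairs within groups differed by a chi-square of at least 2.73 per degree of freedom, more than repeat counts of the same library would. This check cannot tell whether libraries were made from the same RNA or brain. The procedure was run on simulated counts as well, but the outcome is not given and no result here rests on it. Also tried were autosomal TMM, RLE, other filters, DESeq2 1.42.0, limma 3.58.1 voom, the replicate number as a block and omitted libraries.

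Members and gene lists were chosen with earlier results of these data known. Named genes are the 5 members, up to 3 genes of each of 8 pathway lists with the smallest p in the average of the p53-/- groups against control females, the 3 genes nearest to each member, Wrap53 as the neighbour of Trp53, and Xist, Bcl2l11 and the Y-linked genes as label checks. Cdkn2a and Zfp365 were named after their values were seen.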

Additional observations from a re-analysis of the deposited data

How the results depend on the processing

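Mdm4 stayed lower and called under all 20 alternatives in affected females against control females (adjusted p at most 0.0145) and against control males (at most 0.0471), while most other calls on the 5 genes changed under at least 1 alternative. With limma voom and sample weights the numbers of genes called were 7639 for affected against control females, 1569 for control males against control females, 6397 for affected females against control males and 5885 for the average of the p53-/- groups, against 4073, 21, 2940 and 460 with edgeR. In the first comparison voom called Usp7 (0.24) and Ppm1d (0.23), in the second Trp53 (0.27), in the third Mdm2 (-0.19), and in the last Trp53 (0.22) and Mdm2 (-0.21). DESeq2 called 43 genes in control males against control females and 1007 in the p53-/- average, where testing every gene with a count gave 939. Omitting control female 1 with control male 4 gave 6014 calls in affected females against control males and 1326 in the p53-/- average. It also brought past the threshold Usp7 in affected against control females (0.26) and Mdm2 (-0.29) and Ppm1d (0.24) in affected females against control males, and reversed the sign of Mdm2 (0.020), Mdm4 (0.042) and Ppm1d (-0.048), none of them called, in control males against control females. The cause of these changes was not tested.

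Same-numbered libraries did not deviate together: 3 of 10 pairs had a correlation over 0.1, from -0.14 to 0.18, and 0 libraries were closest to their own number. With the replicate block, 175 genes were called in the p53-/- average, Mdm4 stood there at -0.47 (adjusted p = 0.079, edgeR) and Usp7 at -0.024, and Mdm2 passed in affected females against control males (-0.24).

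Leaving out 1 library at a time gave 1663 to 4957 calls in affected against control females (Mdm2 -0.38 to -0.27, Ppm1d 0.19 to 0.41) and 18 to 35 in control males against control females (Ppm1d -0.0032 to 0.22, the former without control female 1). It gave 361 to 5140 in affected females against control males (Mdm2 -0.29 to -0.18, Usp7 0.27 to 0.37) and 45 to 2275 in the p53-/- average (Mdm4 -0.60 to -0.42, Usp7 -0.012 to 0.11). The lowest counts were without control female 3, control male 1 or control male 3, affected female 3 and control female 3, in that order of comparisons. Usp7 in the p53-/- average was below 0 without affected female 4, control male 4, control female 2 or control female 3. RLE scaling moved 0 of 32 list counts by over 1.5 times, and omitting control female 1 with control male 4 moved 17.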
